A study of Mus musculus with 4 samples.

Results

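The genes examined here build the thin filament and Z-disc of heart muscle or move its calcium, and they were chosen by their signals on these same arrays, where heart muscle transcripts had been seen to differ between the mouse strains. The 10 genes are Actc1, Tnnt2, Tnni3, Tnnc1, Tcap, Csrp3, Ankrd1, Pln, Ryr2 and Atp2a2, out of 12393 genes named on the array. All 18 probe sets whose annotation names exactly 1 of them were used, out of 22626. The strain difference chose these genes, so it is described below and not tested. The diet comparison was not itself used for the choice. Within a strain it reuses the arrays that gave the strain difference, so it is not independent of the choice.

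RNA came from the aorta of female mice, 6 weeks old, and all groups carried the apoE-/- defect, the loss of apolipoprotein E, which raises plasma cholesterol. C3H Western and C3H chow mice (strain C3H/HeJ) and C57BL/6 Western and C57BL/6 chow mice (strain C57BL/6) were weaned at 3 weeks, and the Western groups changed from chow to Western diet at 4 weeks and stayed on it for 2 weeks. Each of the 4 groups was measured on 1 array, so no group has a replicate, and the labels do not say how many animals stand behind an array. The questions are how the aorta of one strain differs from that of the other and how each responds to Western diet, which the labels describe as extreme hyperlipidemia.

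In a striated muscle cell, cardiac actin forms the thin filament, and the troponin complex on it switches contraction on when calcium binds. The thin filaments are anchored at the Z-disc, where linker and stretch-sensing proteins also meet titin. Each beat releases calcium from the sarcoplasmic reticulum through the ryanodine receptor, and the calcium pump returns it under the brake of phospholamban. The wall of the aorta contracts through smooth muscle, which lacks cardiac troponin but does use the same calcium pump gene and phospholamban.

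Signals are given after quantile normalization of the deposited intensities, and a floor at a signal of 83.6, the 40th percentile of all values, marks where a value counts only as a bound. A fold against an array at or under the floor is written as "at least", with that array raised to the floor. A probe set is a group of probes for 1 transcript, and the one with the highest mean log2 signal stands for its gene (the representative). For scale, probe sets of the same gene differed from each other by a pooled SD of log2 0.60 in the strain difference on chow and 0.51 on Western diet (1675 genes). Smooth muscle markers were above the floor on all 4 arrays for 11 of 11 genes measured, and Apoe lay under the floor on every array (16.1 to 65.3). The C3H chow array stood apart, with correlations of 0.868 to 0.904 with the other arrays across the 8740 probe sets that exceeded the floor on every array, where pairs without it gave 0.913 to 0.931.

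The sequences just before the annotated starts of 4 of the genes are shown as examples that hold motifs known from heart and muscle promoters. The window of Pln also holds matches and is not shown, and no link between motifs and signals was tested. Windows of 250 bases were taken from RefSeq on GRCm38.p6, the genome of C57BL/6J, so the C3H sequence may differ from them. A window was present for 8 of the 10 genes, with 2 windows each for Tnnt2 and Csrp3 and none used for Tcap and Atp2a2. The windows below lie at chr2:114052876-114053125 (minus strand) for Actc1, chr1:135836084-135836333 (plus strand) for Tnnt2, chr14:31208062-31208311 (plus strand) for Tnnc1 and chr19:36119845-36120094 (minus strand) for Ankrd1. Capitals mark matches on either strand to CATTCC (the M-CAT element, bound by TEAD factors), GATAA (bound by GATA factors), TATAAA, the CArG box (bound by serum response factor) or the MEF2 site. No match overlaps another in these 4 windows.
Actc1: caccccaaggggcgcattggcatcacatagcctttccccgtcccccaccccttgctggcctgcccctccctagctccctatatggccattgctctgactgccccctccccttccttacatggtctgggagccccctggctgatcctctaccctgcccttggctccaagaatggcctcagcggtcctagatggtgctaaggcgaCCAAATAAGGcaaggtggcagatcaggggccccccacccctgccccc
Tnnt2: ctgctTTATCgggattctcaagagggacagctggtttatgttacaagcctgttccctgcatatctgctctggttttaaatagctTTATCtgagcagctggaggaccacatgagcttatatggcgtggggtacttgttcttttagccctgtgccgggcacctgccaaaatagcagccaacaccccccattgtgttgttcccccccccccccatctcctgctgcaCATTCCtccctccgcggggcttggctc
Tnnc1: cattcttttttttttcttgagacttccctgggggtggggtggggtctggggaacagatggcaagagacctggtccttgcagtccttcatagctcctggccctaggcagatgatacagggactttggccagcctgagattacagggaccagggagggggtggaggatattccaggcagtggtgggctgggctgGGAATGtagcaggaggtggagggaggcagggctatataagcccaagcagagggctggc
Ankrd1: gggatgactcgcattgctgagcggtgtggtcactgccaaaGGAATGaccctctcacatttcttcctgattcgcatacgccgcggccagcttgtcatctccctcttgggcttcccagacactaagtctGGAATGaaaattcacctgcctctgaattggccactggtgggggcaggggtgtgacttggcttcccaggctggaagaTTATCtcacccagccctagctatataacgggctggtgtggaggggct

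The M-CAT letters occurred in 3 of the 8 genes (Tnnt2, Tnnc1 and Ankrd1), and 12.6% of all 32851 windows of this length hold them. GATAA was present in 3 of the 8 (Tnnt2, Ankrd1 and Pln), against 22.6% of all windows. The CArG box was found in 1 of the 8, at 47 to 38 bases before the start of Actc1, where 1.47% of all windows hold it. TATAAA was found in Pln alone of the 8 genes (12.4% of all windows), and the MEF2 site in 0 of the 8 (2.92% of all windows). The windows of Tnni3, Csrp3 and Ryr2 and the second window of Tnnt2 held none of the 5 motifs. By window, the measure used for the shares, M-CAT and GATAA were each in 3 of 10. The CArG box and TATAAA were each in 1 of 10 and the MEF2 site in 0 of 10. A match is a string of letters and not a measured binding site.

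All 10 genes had lower signals on both C3H arrays than on either C57BL/6 array. Among all genes above the floor on any array, 15.2% had this order. By probe set, 17 of 18 had it, against 14.7% of all probe sets, and the exception was a second probe set of Ryr2. On chow, 10 of 10 genes lay at least 2-fold below C57BL/6 in C3H (10.5% of 9702 genes) and 0 higher (10.1% of genes), 4 of the 10 by bound. On Western diet, 10 of 10 were at least 2-fold lower (5.67% of 9438 genes) and 0 higher (5.82% of genes), 6 of the 10 by bound. The median log2 difference, C3H minus C57BL/6, was -3.29 on chow, against 0.02 for all genes, and -2.62 on Western diet, against 0.01 for all genes. Since these genes were chosen for this difference, the counts describe the group and support nothing further. In RNA from whole tissue, fewer cells of a type and less RNA per cell cannot be told apart.

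**Figure D1:**
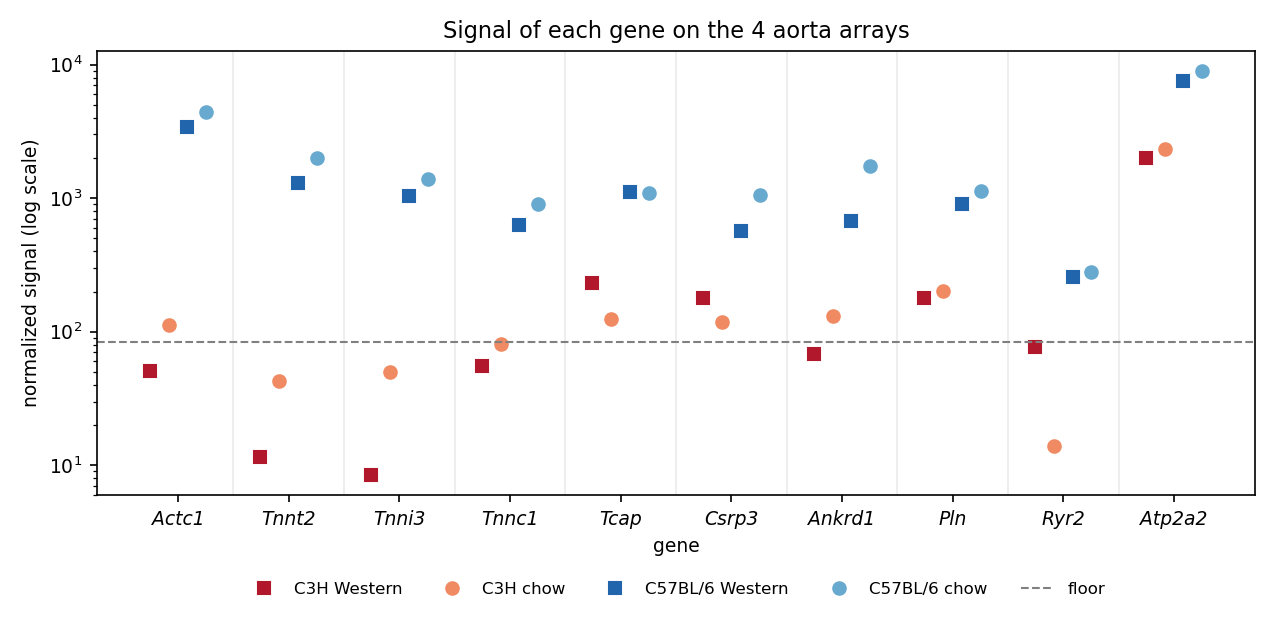
Normalized signal on a log axis for the representative probe set of each of the 10 genes, with 1 point for each array and a dashed line at the floor of 83.6. The C57BL/6 points of all 10 genes lie above both C3H points, while Atp2a2 alone keeps C3H signals far above the floor (2003 and 2336).

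Of the thin filament genes, Actc1, Tnnt2 and Tnni3 had the largest strain differences of the 10 genes on both diets at this floor, where bounds count at their size. Actc1, which encodes cardiac actin, had signals of 50.7 on C3H Western and 111.5 on C3H chow, against 3428 on C57BL/6 Western and 4417 on C57BL/6 chow. It was lower in C3H by at least 41-fold on Western diet (log2 -5.36, or -4.42 where the floor is raised to the 60th percentile) and by 39.6-fold on chow. Of the C3H arrays, chow alone was above the floor, and by little.

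Tnnt2 encodes troponin T, which ties the troponin complex to tropomyosin. Its signals were 11.5 on C3H Western and 42.6 on C3H chow, against 1294 on C57BL/6 Western and 2009 on C57BL/6 chow. Both C3H values were under the floor, so Tnnt2 was lower in C3H by at least 15.5-fold on Western diet and at least 24-fold on chow. A further probe set of Tnnt2 gave the same order, with 7.03 and 8.79 on C3H Western and chow, against 1647 and 2326 on C57BL/6 Western and chow.

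Tnni3 encodes troponin I, the inhibitory subunit made in adult heart. It had signals of 8.41 on C3H Western and 50.1 on C3H chow, against 1045 on C57BL/6 Western and 1402 on C57BL/6 chow. Tnni3 was thus under the floor in both C3H groups, and lower by at least 12.5-fold on Western diet and at least 16.8-fold on chow.

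Tnnc1 encodes troponin C, the calcium-binding subunit shared by heart and slow skeletal muscle. Its signals were 55.4 on C3H Western and 80.7 on C3H chow, against 633.9 on C57BL/6 Western and 897.4 on C57BL/6 chow. The C3H chow value lies just under the floor of 83.6, and Tnnc1 was lower in C3H by at least 7.58-fold on Western diet and at least 10.7-fold on chow. The 3 troponin genes were therefore under the floor on both C3H arrays and well above it on both C57BL/6 arrays.

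The Z-disc genes were lower in C3H too, but 2 of the 3 stayed above the floor there. Tcap encodes telethonin, which caps titin at the Z-disc of heart and skeletal muscle. It had signals of 231 on C3H Western and 123.8 on C3H chow, against 1110 on C57BL/6 Western and 1099 on C57BL/6 chow. Its difference was 4.8-fold on Western diet and 8.88-fold on chow, and all 4 arrays measured it.

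Csrp3 encodes muscle LIM protein, a Z-disc adaptor of heart and slow skeletal muscle. It had 179.4 on C3H Western and 119 on C3H chow, against 566.8 on C57BL/6 Western and 1065 on C57BL/6 chow. This was 3.16-fold lower in C3H on Western diet and 8.95-fold lower on chow, the widest gap between diets among the genes measured on all 4 arrays.

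Ankrd1 encodes the cardiac ankyrin repeat protein, a partner of titin that is induced by stretch. Its signals were 67.8 on C3H Western and 131.6 on C3H chow, against 679.1 on C57BL/6 Western and 1728 on C57BL/6 chow. Ankrd1 was lower in C3H by at least 8.12-fold on Western diet, where C3H lay under the floor (log2 -3.02, or -2.09 with that higher floor), and by 13.1-fold on chow. Its further probe set was dimmer and gave at least 3.20-fold on Western diet and at least 5.83-fold on chow.

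On chow the calcium genes had the smallest differences of the group, that of Ryr2 being a bound, while on Western diet those of Csrp3 and Tcap were smaller than that of Pln. Pln encodes phospholamban, which restrains the calcium pump. Its signals were 179.9 on C3H Western and 200.1 on C3H chow, against 900.2 on C57BL/6 Western and 1135 on C57BL/6 chow. Pln was 5.0-fold lower in C3H on Western diet and 5.67-fold lower on chow, close to each other. Its 3 probe sets gave log2 differences of -2.32 to -1.55 on Western diet and -2.50 to -2.02 on chow.

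Atp2a2 encodes the calcium pump, whose splice forms serve heart and slow muscle on the one hand and smooth muscle and most other cells on the other. Its signals were 2003 on C3H Western and 2336 on C3H chow, against 7599 on C57BL/6 Western and 8971 on C57BL/6 chow. It was 3.79-fold lower in C3H on Western diet and 3.84-fold lower on chow. Of the 10 genes it was the furthest above the floor on the C3H arrays.

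The 4 probe sets of Atp2a2 did not give the same size of difference. Their log2 differences ran from -2.76 to -1.02 on chow and from -2.23 to -0.17 on Western diet. The probe set at the small end had signals of 1753 on C3H Western and 1283 on C3H chow, against 1968 on C57BL/6 Western and 2610 on C57BL/6 chow. Its strain difference on Western diet was thus smaller than the pooled SD between probe sets of a gene, and which splice form each probe set reads is unknown here.

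Ryr2 encodes the ryanodine receptor of heart muscle, the channel that releases calcium. It had signals of 76.5 on C3H Western and 14 on C3H chow, against 256.6 on C57BL/6 Western and 279.7 on C57BL/6 chow. Ryr2 was under the floor in both C3H groups, at least 3.07-fold lower on Western diet and at least 3.35-fold lower on chow. Its second probe set disagreed, with 13.2 on C3H Western and 149.2 on C3H chow, against 4.86 on C57BL/6 Western and 97.4 on C57BL/6 chow. There both chow arrays were above the floor and both Western arrays under it, and C3H was higher than C57BL/6 on chow by log2 0.62. Ryr2 is the gene of the group whose strain difference is least certain: the mean over its probe sets was log2 -0.56 on chow, and a floor raised to the 60th percentile gave -0.68 on Western diet and -0.81 on chow, all short of 2-fold.

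**Figure D2:**
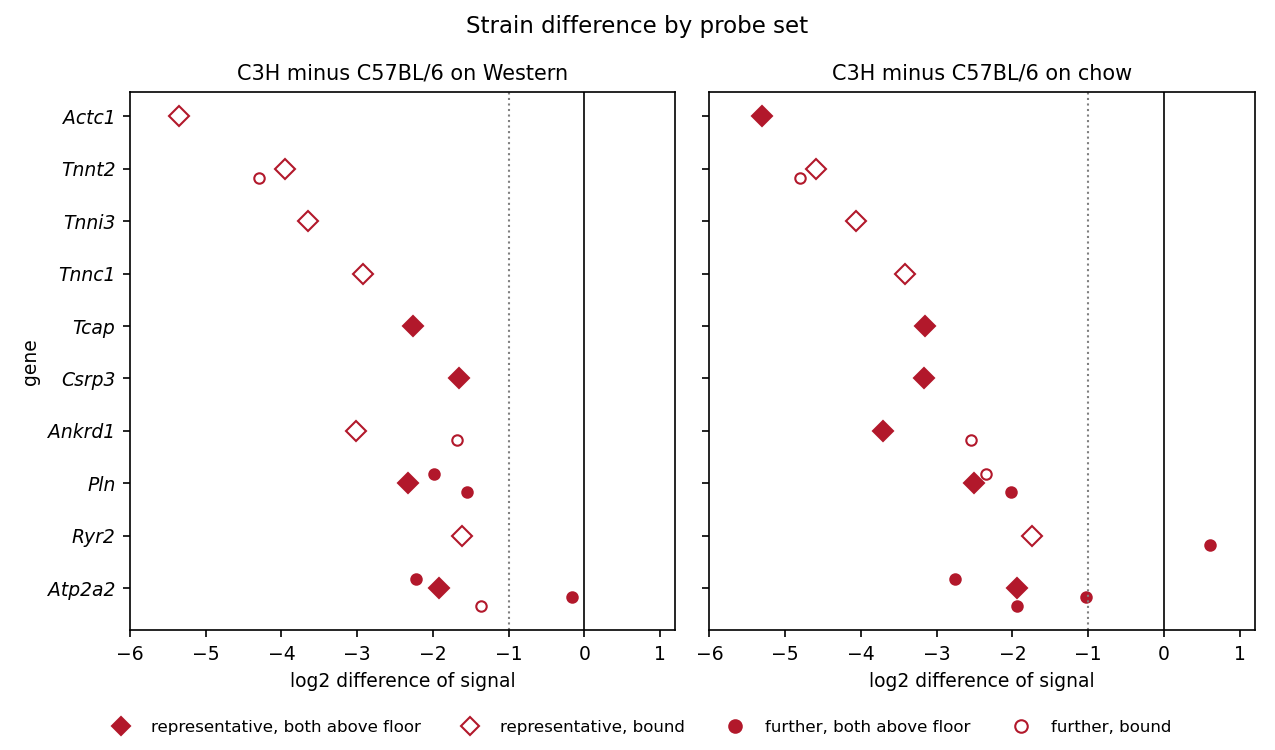
Log2 difference of signal, C3H minus C57BL/6, for every probe set of the 10 genes on Western diet (left) and on chow (right), with diamonds for representative and circles for further probe sets. Open symbols are bounds in which the C3H array was raised to the floor, the dotted line marks a 2-fold lower signal, and the differences run from log2 -5.36 for Actc1 on Western diet, a bound, to 0.62 for the second probe set of Ryr2 on chow.

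Across the group, 4 genes were above the floor on both C3H arrays (Tcap, Csrp3, Pln and Atp2a2), 2 on C3H chow only (Actc1 and Ankrd1) and 4 on neither (Tnnt2, Tnni3, Tnnc1 and Ryr2). The summed signal of the 10 genes was 2864 on C3H Western and 3210 on C3H chow, against 17512 on C57BL/6 Western and 23003 on C57BL/6 chow. Most of the C3H sum came from Atp2a2. Without it the sums were 860.7 and 873.4 on C3H Western and chow, against 9913 and 14032 on C57BL/6 Western and chow. The comparison on Western diet does not subtract the C3H chow array that stood apart, although normalization and floor were set over all 4 arrays. All 10 genes were at least 2-fold lower there as well, 6 of them by bound. As the genes were chosen for the strain difference, this count is a description only.

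Most other heart muscle markers moved with the group. Of 18 heart muscle markers outside it, 13 of 17 with a value lay at least 2-fold below C57BL/6 on chow and 1 was higher, with a median log2 difference of -1.73. On Western diet 11 of 17 were lower and 0 higher, with a median of -1.56. Their summed signal was 4627 and 5983 on C3H Western and chow, against 15206 and 16319 on C57BL/6 Western and chow. Among the brightest, Myh6, the alpha cardiac myosin heavy chain, had 131.6 and 73.8 on C3H Western and chow, against 2463 and 2460 on C57BL/6 Western and chow. Fabp3, a fatty acid carrier of heart and brown fat, was the marker at least 2-fold higher in C3H on chow, with 4187 there, against 1882 on C57BL/6 chow. Myh7, a myosin heavy chain also listed for slow skeletal muscle, went the other way from Myh6 on both diets. It had 148.6 and 163.4 on C3H Western and chow, against 81.0 and 35.3 on C57BL/6 Western and chow, both under the floor. This was higher in C3H by at least log2 0.83 on Western diet and 0.97 on chow. Myl2, the ventricular myosin light chain, was under the floor on 3 of the 4 arrays and reached 96.4 on C57BL/6 Western.

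The wider list of sarcomere and Z-disc genes was less uniform than the 10 genes. Of 22 with a value on chow, 12 were at least 2-fold lower in C3H and 0 higher (median log2 -1.13), and of 23 on Western diet, 10 were lower and 0 higher (median -0.69). Cryab, a small heat shock protein that protects desmin and actin filaments, had 611.8 on C3H Western and 210.4 on C3H chow, against 766.8 on C57BL/6 Western and 1034 on C57BL/6 chow. Tpm1, the tropomyosin on which the troponins sit and which smooth muscle also makes, had 2977 on C3H Western and 2224 on C3H chow, against 2660 on C57BL/6 Western and 4248 on C57BL/6 chow. Tpm1 therefore did not share the order of the troponins. Myoz2, a Z-disc partner of calcineurin, differed by log2 -0.65 on Western diet and -1.51 on chow.

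Among 20 further calcium and excitation genes, 18 were on the array. On chow 4 of 14 with a value were at least 2-fold lower in C3H and 2 higher (median log2 -0.71), and on Western diet 5 of 11 were lower and 0 higher (median -0.47). Hrc, a calcium-binding protein of the sarcoplasmic reticulum, had 55.2 on C3H Western and 254.8 on C3H chow, against 321 on C57BL/6 Western and 361.6 on C57BL/6 chow, so only the Western groups were far apart. Gja1, a gap junction protein of ventricle and many other tissues, was higher in C3H by log2 0.43 on Western diet and 1.13 on chow. Sarcolipin (Sln), a small relative of phospholamban that also restrains the pump, was picked out after its values were seen. It had 5.79 and 14.8 on C3H Western and chow, against 1224 and 2215 on C57BL/6 Western and chow, at least 14.6-fold and at least 26.5-fold lower.

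Factors and hormones of heart identity were mostly dim. Of 13 on the array, 4 of 11 with a value on chow were at least 2-fold lower in C3H and 0 higher (median log2 -0.24), and on Western diet 1 of 10 was lower and 1 higher (median 0.22). Nppa, the atrial natriuretic peptide, had 120.5 and 23 on C3H Western and chow, against 487.3 and 547.7 on C57BL/6 Western and chow. Mef2a and Mef2c, whose factors bind many muscle promoters, differed by log2 -0.24 and 0.17 on Western diet and -0.24 and 0.48 on chow. Nppa therefore had the order of the 10 genes, and the Mef2 genes stayed within log2 0.48 of equality. Tbx20 was higher in C3H by log2 0.63 on Western diet and 0.29 on chow. Popdc2 differed by log2 0.40 on Western diet and -1.99 on chow, a bound, and Gata6 by -0.37 and -1.37. The 1 gene at least 2-fold higher on Western diet was Nkx2-5, picked out after its values were seen. It differed by log2 1.23 on Western diet and -0.42 on chow, both bounds.

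The relatives of these genes that serve other muscles did not share the strain pattern on Western diet. Of 15 paralogs on the array, 9 had a value there, and 0 were at least 2-fold lower and 0 higher in C3H (median log2 0.18, range -0.22 to 0.97). On chow 3 of 9 were lower and 1 higher (median -0.80). Acta1, skeletal actin, had 119.6 on C3H Western and 101.4 on C3H chow, against 105.4 on C57BL/6 Western and 375.8 on C57BL/6 chow. Acta2, smooth muscle actin, had 34861 on C3H Western and 23565 on C3H chow, against 40729 on C57BL/6 Western and 54541 on C57BL/6 chow. Both were highest on the C57BL/6 chow array, and neither approached the difference of Actc1 on Western diet. Tnnt1 and Tnni1, the slow skeletal troponins, were under the floor on all 4 arrays, as were the fast skeletal Tnni2 and Ryr1, which were picked out after their values were seen. Other fast skeletal paralogs passed the floor. Tnnc2 did so on C57BL/6 chow (145.6) and C3H Western (96.3), Tnnt3 on C3H chow (105.3) and Atp2a1 on all 4 arrays (92.1 to 180.4).

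Marker lists of other tissues are given beside the strain difference, and their part in it was not tested. Fast skeletal muscle markers summed to 1838 and 2075 on C3H Western and chow, against 1708 and 2872 on C57BL/6 Western and chow, with 10, 9, 7 and 12 of 16 above the floor on these arrays. On Western diet 1 of 10 with a value was at least 2-fold lower in C3H (Ckm, shared with heart) and 0 higher. Slow skeletal muscle markers, 7 on the array, summed to 1772 and 1190 on C3H Western and chow, against 1219 and 1267 on C57BL/6 Western and chow. Most of the slow sum was Tpm3 (1494 and 868 on C3H Western and chow, against 706 and 752 on C57BL/6 Western and chow), a tropomyosin gene of slow muscle and many other cells, while Tnnt1, Tnni1 and Ankrd2 were under the floor on every array. On chow 3 of 13 fast markers with a value were at least 2-fold lower in C3H and 1 was higher, and the lower ones included Acta1 and Ckm. Among slow markers with a value, 1 of 3 on chow passed 2-fold, below C57BL/6. On Western diet 1 of 4 passed it below C57BL/6 and 1 above (Tpm3). The marker below C57BL/6 on both diets was Myl3, a myosin light chain also listed for heart muscle. Its signals were 14.3 and 25.4 on C3H Western and chow, against 193.9 and 422.7 on C57BL/6 Western and chow. Myl3 thus had the order of the 10 genes, by bounds of 2.32-fold on Western diet and 5.06-fold on chow. The summed signals of both skeletal lists overlapped between the strains.

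Smooth muscle markers summed to 96369 and 62578 on C3H Western and chow, against 99870 and 130122 on C57BL/6 Western and chow, and on chow 5 of 11 lay at least 2-fold below C57BL/6, but 0 on Western diet. Of the fibroblast markers, 8 of 8 were lower in C3H on chow, and on Western diet 0 of 8 were lower and 1 was higher. Brown fat markers leaned the other way on chow, with 5 of 6 at least 2-fold higher in C3H, and 0 of 6 either way on Western diet. Macrophage markers gave 0 of 6 either way on both diets. Endothelial markers gave 0 of 10 lower and 2 higher on chow, and 0 of 9 lower and 1 higher on Western diet. White fat markers gave 0 of 4 either way on chow, and 1 of 4 lower and 0 higher on Western diet.

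**Figure D3:**
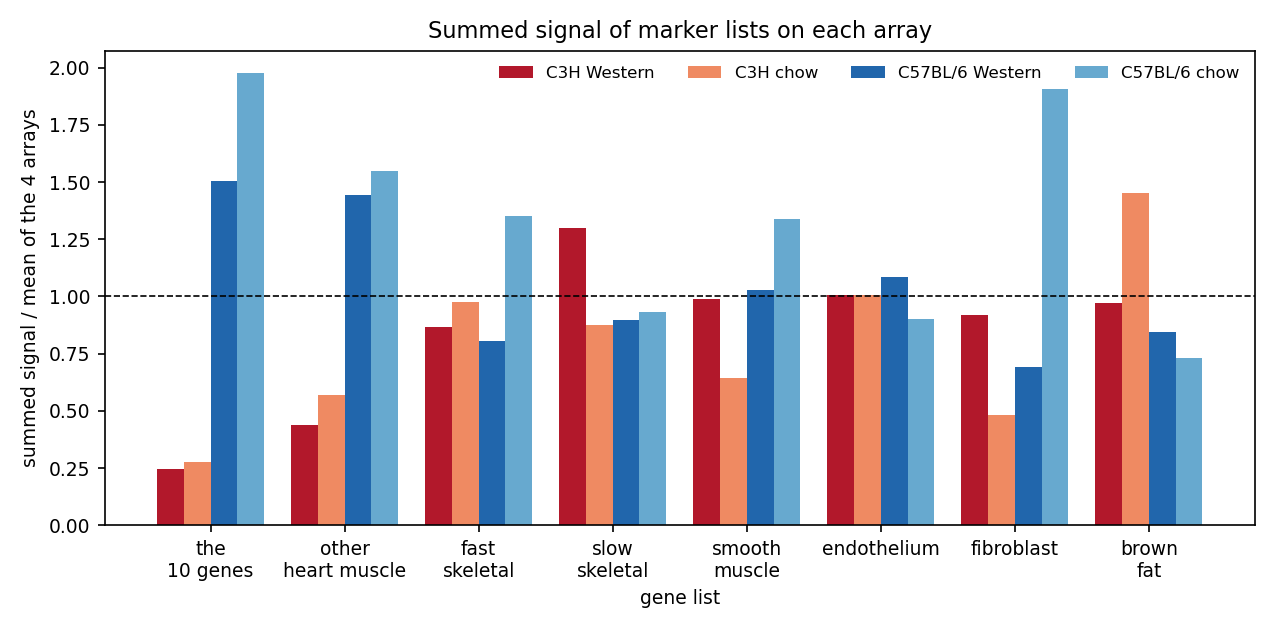
Summed signal of the 10 genes and of marker lists on each array, divided by the mean of the 4 arrays (dashed line at 1). The 10 genes and the other heart muscle list are low on both C3H arrays, whereas smooth muscle (62578 to 130122) and fibroblast signals are lowest on C3H chow and highest on C57BL/6 chow.

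The genes most like the group over the 4 arrays were sought among 8879 genes outside it, by the Euclidean distance of log2 signals centred on their mean from the median of the 10 genes. The 8 nearest were Bcl7c, Ubxn8, Hlcs, Irx6, Cyp2d13, Tmem82, Cyp4f13 and Cacna1a, at distances of 0.31 to 0.50. All 8 were dim, under the floor on both C3H arrays and at 91.9 to 261.7 on the C57BL/6 arrays. They were lower in C3H, but the size of that difference is a bound and their 2 C3H values have no order. With signals raised to the floor first, a choice made after these values were seen, the 8 nearest were Fez1, Cox6a2, Ckmt2, H2-D1, Nppa, Fam53a, Emb and Mb, at distances of 0.31 to 0.87. The lists share 0 genes. In the second, Cox6a2 and Ckmt2, of the mitochondria of striated muscle, Nppa and myoglobin (Mb) were also among the heart muscle markers above.

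With Western diet 9 of the 10 genes had lower signals in C57BL/6, and those with a value in C3H differed in direction. The same arrays gave the strain difference that chose the genes, so these directions are not independent of that choice. In C57BL/6, 9 of 10 had a lower signal on Western diet than on chow, where 50.2% of 9461 genes did, with a median log2 difference of -0.39 against -0.0022 for all genes. Only Ankrd1 was at least 2-fold lower (5.62% of genes), and 0 of 10 were at least 2-fold higher (5.73%). Ankrd1 had 679.1 on C57BL/6 Western, against 1728 on C57BL/6 chow, 2.54-fold lower (log2 -0.87 by its further probe set). Csrp3 had 566.8 on C57BL/6 Western, against 1065 on C57BL/6 chow, 1.88-fold lower. Tnnt2 was 1.55-fold lower and Tnnc1 1.42-fold lower. These 4 are the genes whose difference exceeded the pooled SD between probe sets of a gene, log2 0.48. Tnnc1 (log2 -0.50) passed that SD narrowly and fell short of it with equal medians (-0.39) and with cyclic loess (-0.46). The share of all genes beyond that SD was not taken. The representatives of the other 6 lay within that SD, from log2 -0.42 for Tnni3 to 0.01 for Tcap. The further probe sets of Atp2a2 gave log2 -1.05, -0.90 and -0.41, against -0.24 by its representative, and its mean over probe sets was -0.65, beyond that SD. The further probe sets of Pln gave log2 -0.47 and 0.38, against -0.33 by its representative. The 2 of 18 probe sets at least 2-fold lower were the representative of Ankrd1 and 1 of Atp2a2. The share over all probe sets was not taken, so this count is a description only.

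Within the heart muscle markers outside the group the median was log2 -0.35 in C57BL/6 (1 of 16 at least 2-fold lower, 0 higher). Smooth muscle markers had a median of -0.42 (0 of 11 lower) and fibroblast markers of -1.28 (6 of 8 lower), in the same direction. Endothelial markers had a median of 0.18 (0 of 10 lower, 1 higher). Macrophage markers had a median of 0.32 (0 of 6 lower, 1 higher), so the cell types of the vessel wall did not all move the same way. Their part in the diet difference of the 10 genes was not tested.

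In C3H, 6 of the 10 genes had at least 1 array above the floor. Of these, 0 were at least 2-fold lower (8.13% of 9624 genes) and 0 at least 2-fold higher (8.32%) with Western diet. Tcap had 231 on C3H Western, against 123.8 on C3H chow, 1.87-fold higher. Csrp3 had 179.4 on C3H Western, against 119 on C3H chow, 1.51-fold higher. Tcap (log2 0.90) exceeded the pooled SD of log2 0.57 between probe sets, and Csrp3 (log2 0.59) lay close to it. Csrp3 fell short of that SD on the deposited values (0.44), with cyclic loess (0.42) and with a floor at the 60th percentile (0.17), and with that floor Tcap did too (0.53). Ankrd1 was at least 1.57-fold lower and Actc1 at least 1.33-fold lower, since both were under the floor on C3H Western. Pln and Atp2a2, measured on both C3H arrays, differed by log2 -0.15 and -0.22 by their representatives. Over all probe sets the differences ran from -0.15 to 0.75 for Pln and from -0.52 to 0.45 for Atp2a2. Their direction thus depended on the probe set. Every C3H difference is taken against the C3H chow array that stood apart, and no value can be had without it.

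**Figure D4:**
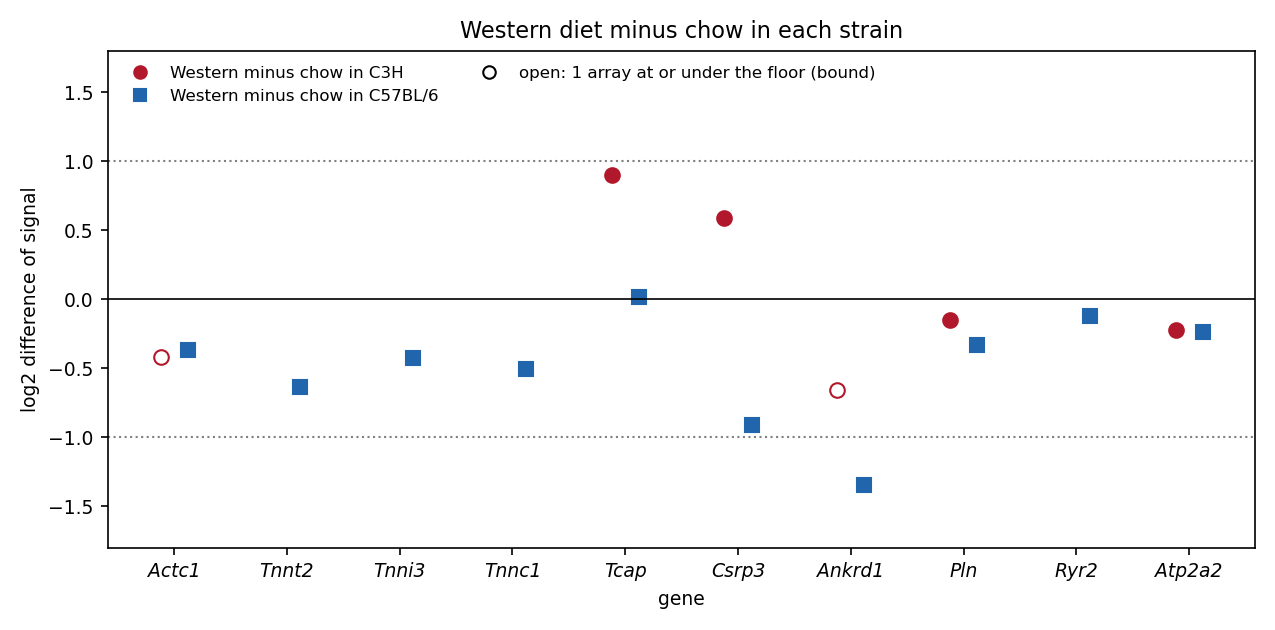
Log2 difference of signal, Western diet minus chow, of the representative probe set of each gene in C3H (circles) and C57BL/6 (squares), with open symbols for bounds and dotted lines at 2-fold. Only Ankrd1 in C57BL/6 passes 2-fold, at log2 -1.35, and 4 genes have no C3H point because both arrays were at or under the floor.

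Over both strains, diet was tested in an additive limma fit with strain as a term, using the 14915 probe sets that exceeded the floor on 2 or more arrays. None of the 18 probe sets passed a Benjamini-Hochberg adjusted p of 0.05 (lowest 0.9996, limma), and 0 of all 14915 did (0.0%). At an unadjusted p under 0.05 there were 2 of 18, against 2.46% of all probe sets. These were the representative probe set of Ankrd1 (log2 -1.15, 95% interval -2.09 to -0.21) and 1 of the 4 of Atp2a2 (log2 -0.79, 95% interval -1.42 to -0.15). For the other probe sets of these genes the fit gave log2 0.64 for Ankrd1 and -1.79 to 0.02 for Atp2a2. The intervals of most remaining representatives were wide, for example -3.07 to 0.07 for Tnni3 and -0.38 to 1.30 for Tcap, and both hold 0 and a 2-fold difference. For the representative of Atp2a2 it was -0.92 to 0.46, which holds 0 but not a 2-fold difference.

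Signals under the floor entered the fit as measured. Both C3H arrays were under it for the representatives of Tnni3, Tnnt2, Tnnc1 and Ryr2 and for the further probe set of Ankrd1, and C3H Western was under it for the representatives of Ankrd1 and Actc1 and for the Atp2a2 probe set at -1.79. The only residual of the fit is the unreplicated interaction of strain and diet, and most of its error comes from a variance shared across probe sets (prior of 17.3 degrees of freedom beside 1). With 2 arrays on each side, the smallest two-sided p of an exact permutation test would be 0.333. Whether the diet response differs between the strains could not be tested with 4 arrays.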

How the data were processed

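The members and gene lists were chosen with earlier results of these data known. Per the labels' protocols, total RNA (8 ug, Trizol) gave biotinylated cRNA, which was hybridised to Affymetrix arrays of 1 colour. The authors deposited intensities on a linear scale for 22690 probe sets, and their image software, scaling and background step are not given in the labels. Deposited medians ran from 110.3 to 128.1.

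The 64 control probe sets were left out and log2 values were quantile normalized (limma 3.58.1, R 4.3.3). Of the rest, 20380 probe sets name 1 gene in the platform's annotation, 691 several and 1555 none. The array's design predates the RefSeq tables, and no coordinates of genes are given. The floor is the 40th percentile, and a difference with 1 array at or under it is a bound. Differences with 1 array on each side have no test. Diet was fitted with lmFit and eBayes with a mean trend, with Benjamini-Hochberg adjustment at 0.05, after the fit was tested on simulated data. Precision is limited by the 4 arrays.

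All 10 genes are named. Of each list the 6 brightest could be named, and the others are counted. Lists were of other sarcomere, calcium and identity genes, paralogs, and markers of heart, fast and slow skeletal, smooth muscle, endothelium, fibroblast, brown fat, white fat and macrophages. Alternatives were the deposited values, equal medians, cyclic loess, a floor at the 25th or the 60th percentile or no floor, the mean over probe sets, thresholds of 1.5-fold and 3-fold, and, for the fit, no filter, no mean trend and 1 probe set per gene. Python 3.11.15 with numpy 2.4.6, pandas 2.3.3 and matplotlib 3.10.9 served for all other steps.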

Additional observations from a re-analysis of the deposited data

Results flagged for a closer look

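Csrp3, the Z-disc adaptor, was the only 1 of the 10 genes that was above the floor on all 4 arrays and responded to Western diet in opposite directions in the strains. Its log2 difference, Western minus chow, was 0.59 in C3H and -0.91 in C57BL/6. The C3H value was 0.44 on the deposited values, 0.42 with cyclic loess and 0.17 with a floor at the 60th percentile, each within the SD between probe sets of a gene (log2 0.57). With 1 array in each group, this difference between the strains was not tested. The same arrays gave the strain difference that chose the genes, so the opposite responses are not independent of that choice.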

How the results depend on the processing

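The strain difference of the 10 genes kept its direction under the 7 alternatives of normalization, floor and probe set choice. The count at least 2-fold lower in C3H was 9 or 10 on both diets, and the median log2 difference ran from -3.60 to -2.76 on chow and from -2.82 to -2.18 on Western diet. Ryr2 dropped out where the count on chow was 9. For diet in C3H, where the count past 2-fold was 0, it was 1 with cyclic loess, 2 with the floor at the 25th percentile, 4 with no floor and 3 at 1.5-fold. The cause was not tested for cyclic loess, while lower floors let in values of dim arrays. The median there was -0.38 to 0.01. In C57BL/6 the count of 1 was 3 at 1.5-fold and 0 at 3-fold, and the median stayed between -0.46 and -0.28. The share of all genes was not taken under these other settings, so the changed diet counts are no result about the 10 genes. The additive limma fit called 0 probe sets for diet under all alternatives except that without a filter on low signals, which called 5, none of them a member (0 of 18). Medians were taken as moved where they shifted by more than the SD between probe sets of a gene, since no replicate spread exists. The additive fit compares the diets within each strain. By replicate number, no paired analysis was possible because each group has 1 array. With no detection calls, signal over background could be judged only by the floor, and it sets the size of every bound. A floor at the 60th percentile gave, on Western diet, log2 -4.42 for Actc1, -3.02 for Tnnt2, -2.71 for Tnni3, -1.99 for Tnnc1, -2.09 for Ankrd1 and -0.68 for Ryr2, and on chow -3.65 for Tnnt2, -3.13 for Tnni3, -2.49 for Tnnc1 and -0.81 for Ryr2.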
